A study of Mus musculus with 17 samples.

Results

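The genes described here are 10 in a count table of mouse kidney RNA: 9 genes of cytochrome P450 family 2 (Cyp2j5, Cyp2j13, Cyp2j11, Cyp2j9, Cyp2e1, Cyp2a4, Cyp2d26, Cyp2d22 and Cyp2d12) and Por, which encodes the reductase that supplies these enzymes with electrons. They are 10 of the 55487 genes in the table, and all 10 were matched by symbol. They were chosen by gene family with the difference between the 2 groups of these same libraries already known, so their group differences are a description and carry no p-value. The kidneys came from male mice aged 16 weeks of a BKS strain that carries the Leprdb mutation of the leptin receptor, 1 library per animal. The 8 db/m animals are heterozygous for Leprdb and lean. The 9 db/db animals are homozygous for Leprdb, lack the long leptin receptor in every cell and become obese and diabetic. No promoter-driven transgene or treatment is named in the labels. Polyadenylated RNA was tagged near its 3′ terminus, which makes counts independent of how long a transcript is. Levels are given in CPM (a gene's share of counts, scaled to a total of 1000000 and by TMM factors). The share is taken of the counts of genes that passed a filter on low counts. Groups follow the sample titles, which the library names in the labels match. The genotype field of the labels gives the opposite genotype for all 17 samples, and every direction below would turn round if that field were right.

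Cytochrome P450 enzymes of family 2 sit in the endoplasmic reticulum and insert an oxygen atom into lipids, steroids and foreign compounds, using electrons that NADPH passes on through the reductase Por and, for some reactions, cytochrome b5. In the kidney they are known mainly from the proximal tubule. Enzymes of the 2J subfamily turn arachidonic acid into epoxides that act on blood vessels and sodium transport, and epoxide hydrolases turn these into diols. Whole-kidney RNA does not show in which cells a transcript was made, and fewer cells of a type cannot be told apart from less RNA per cell.

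The promoters of 4 genes that the results turn on are shown first, as 250 bases before and 50 bases after the transcript start (RefSeq, build GRCm38.p6), because Cyp2a4 and Cyp2e1 varied together, Cyp2d26 varied against Cyp2a4 in db/db and was higher there, and Cyp2j13 was lower in every db/db library. They read 5′ to 3′ along the gene's own strand. Capitals mark matches, on either strand, to the motif TTCNNNGAA of STAT factors, the motif CAAAGTCCA of HNF4, the half-site GTTAAT of HNF1 or the core promoter element TATAAA. No 2 matches overlap in these 4 promoters.
Cyp2a4, chr7:26306942-26307241, plus strand: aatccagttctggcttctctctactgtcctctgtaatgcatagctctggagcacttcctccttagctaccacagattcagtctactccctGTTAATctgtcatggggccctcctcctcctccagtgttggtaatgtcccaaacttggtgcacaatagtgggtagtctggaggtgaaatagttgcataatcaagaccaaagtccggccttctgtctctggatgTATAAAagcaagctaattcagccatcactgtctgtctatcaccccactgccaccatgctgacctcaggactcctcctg
Cyp2e1, chr7:140763569-140763868, plus strand: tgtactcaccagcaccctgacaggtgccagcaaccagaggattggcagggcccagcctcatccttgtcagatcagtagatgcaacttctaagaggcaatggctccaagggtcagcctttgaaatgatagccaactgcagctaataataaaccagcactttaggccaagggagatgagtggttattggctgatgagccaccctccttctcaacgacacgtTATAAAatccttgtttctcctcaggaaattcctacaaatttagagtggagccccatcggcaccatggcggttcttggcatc
Cyp2d26, chr15:82794196-82794495, minus strand: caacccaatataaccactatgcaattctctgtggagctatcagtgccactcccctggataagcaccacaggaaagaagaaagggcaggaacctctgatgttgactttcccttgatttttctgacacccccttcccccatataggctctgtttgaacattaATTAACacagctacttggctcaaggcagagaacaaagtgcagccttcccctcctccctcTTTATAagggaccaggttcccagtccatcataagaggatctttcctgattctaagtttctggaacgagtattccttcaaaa
Cyp2j13, chr4:96077491-96077790, minus strand: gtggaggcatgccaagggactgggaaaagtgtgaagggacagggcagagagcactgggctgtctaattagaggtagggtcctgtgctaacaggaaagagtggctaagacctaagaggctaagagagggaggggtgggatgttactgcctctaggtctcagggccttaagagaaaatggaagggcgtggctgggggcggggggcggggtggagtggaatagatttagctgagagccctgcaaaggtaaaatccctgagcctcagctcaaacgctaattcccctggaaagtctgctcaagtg

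Promoter entries were found for 8 of the 10 genes, Cyp2d22 and Cyp2d12 having none. TATAAA on either strand was found in 4 of the 8 (Cyp2j5, Cyp2e1, Cyp2a4 and Cyp2d26), against 14.2% of 27025 promoters of the same length. In Cyp2a4 it begins 28 bases and in Cyp2e1 31 bases before the start. In Cyp2d26 and Cyp2j5 the match is on the opposite strand, read as TTTATA, and begins 31 and 128 bases before the start. GTTAAT was in 2 (Cyp2a4 and Cyp2d26), against 7.20% of all promoters. TTCNNNGAA was in 1 (Cyp2j11), against 8.47%, and CAAAGTCCA in 0, against 0.477%. The Cyp2j13 promoter shown holds no match to any of the 4 patterns. These are matches of letters in a short window and show no binding.

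Libraries held 3256427 to 7627747 gene counts, and the groups' depths overlapped. The first principal component of log2 CPM over the 12131 tested genes held 32.8% of the variance, with db/db replicate 8 at 79.2, well beyond the next highest score, 43.1 in db/db replicate 7. The labelled tissue was checked on its markers: 17 of 17 markers of the proximal tubule segments S1 and S2 passed the filter, of which 3 rose and 1 fell in db/db, and 11 of 11 of segment S3, of which 1 rose and 6 fell. The summed level of the S1 and S2 markers was 16809 to 21723 CPM in db/m, against 19583 to 29384 in db/db (p = 0.00708 by exact permutation, two-sided; 0.0177 after Benjamini-Hochberg adjustment over 15 library measures). The summed level of S3 markers was 2884 to 3422 CPM in db/m, against 1636 to 2385 in db/db (p = 4.11e-05 by exact permutation, the smallest that 24310 regroupings can give; adjusted 0.000617). Hepatocyte markers, of which 6 of 15 were high enough to test, summed to 99.2 to 153 CPM in db/m, against 132 to 252 in db/db (p = 0.00210 by exact permutation, adjusted 0.00629), and of these 6, Apoa2 rose (log2 fold change 1.34, SE 0.37; edgeR adjusted p = 0.0281) and 0 fell. Alb, with 315 counts over db/m libraries and 718 over db/db libraries, did not pass (1.02, SE 0.31; edgeR adjusted p = 0.0510). Apob, the most abundant of the 6, averaged 59.0 CPM for db/m, against 100.4 for db/db, and did not pass either (0.77, SE 0.24; edgeR adjusted p = 0.0537). The rest of the 6 had values below 0 and did not pass: Serpina1a (-0.19, SE 0.18), Serpina1c (-0.30, SE 0.32) and Hp (-0.30, SE 0.68). The markers thus did not all move the same way. Of the markers too low to test, Ttr had 63 and 195 counts and Cyp3a11 0 and 8, while Tat and Mup20 had 0 in all 17 libraries. Leukocyte markers summed to 124.5 to 195.7 CPM in db/m, against 66.8 to 194.2 in db/db (p = 0.0155 by exact permutation, adjusted 0.0332). Collecting duct markers summed to 321 to 930 CPM in db/m, against 735 to 1665 in db/db (p = 0.000699 by exact permutation, adjusted 0.00350), and 7 of 8 rose. Podocyte markers summed to 116 to 177 CPM in db/m, against 152 to 227 in db/db (p = 0.00156 by exact permutation, adjusted 0.00586), and 2 of 5 rose. The part of these shifts in the values below was not tested. The db/m libraries carry the lowest library numbers and the db/db libraries all the higher ones, so anything that went with this numbering cannot be told apart from the genotype. The leptin receptor gene Lepr was at 3.77 ± 1.92 CPM in db/m (SD, n = 8), against 1.92 ± 1.42 CPM in db/db (SD, n = 9), and its difference was not called (log2 fold change -0.97, SE 0.44; edgeR adjusted p = 0.211); the mutation alters splicing of the long form, so this count does not check the genotype.

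The 9 P450 genes together made up 2334 ± 273 CPM in db/m (SD, n = 8), against 1740 ± 337 CPM in db/db (SD, n = 9), with ranges of 2026 to 2845 and 1427 to 2440 CPM. With Por, the 10 genes took 0.257% ± 0.0209 of all gene counts in db/m, against 0.198% ± 0.0270 in db/db. The P450 sum was 7.98 ± 1.02 times the level of Por in db/m, against 7.34 ± 0.975 times in db/db, with overlapping ranges (6.19 to 9.05 and 6.01 to 8.77). Cyp2j5 held 63.3% ± 4.46 of the P450 sum in db/m, against 61.8% ± 4.07 in db/db. Other shares lay further apart: Cyp2d26 held 4.03% ± 1.02 in db/m, against 17.4% ± 4.75 in db/db, Cyp2j13 9.38% ± 1.63 and 4.30% ± 1.56, and Cyp2a4 5.04% ± 1.94 and 1.67% ± 0.963.

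All 10 genes passed the filter on low counts. In the fit over all 12131 tested genes (quasi-likelihood test of edgeR, p-values adjusted by the Benjamini-Hochberg method), 2 of the 10 were called higher in db/db, 6 were called lower and 2 were not called. Over all genes 3.91% were called higher, 3.49% lower and 7.39% in either direction, and nothing is read from the comparison, as the genes were picked with this contrast known. For 3 of the 10 genes the ranges of the groups were separate (Cyp2j13, Cyp2d26 and Cyp2d22), against 1.78% of all tested genes. The median log2 fold change of all tested genes was 0.00. The 6 lower genes became 3 (Cyp2j13, Cyp2a4 and Cyp2d12) without any 1 of db/m replicates 1, 2 and 4 and db/db replicates 2, 3, 5, 6 and 9. With db/m replicate 8 and db/db replicate 8 both left out, 7 were lower and 2 higher.

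**Figure D1:**
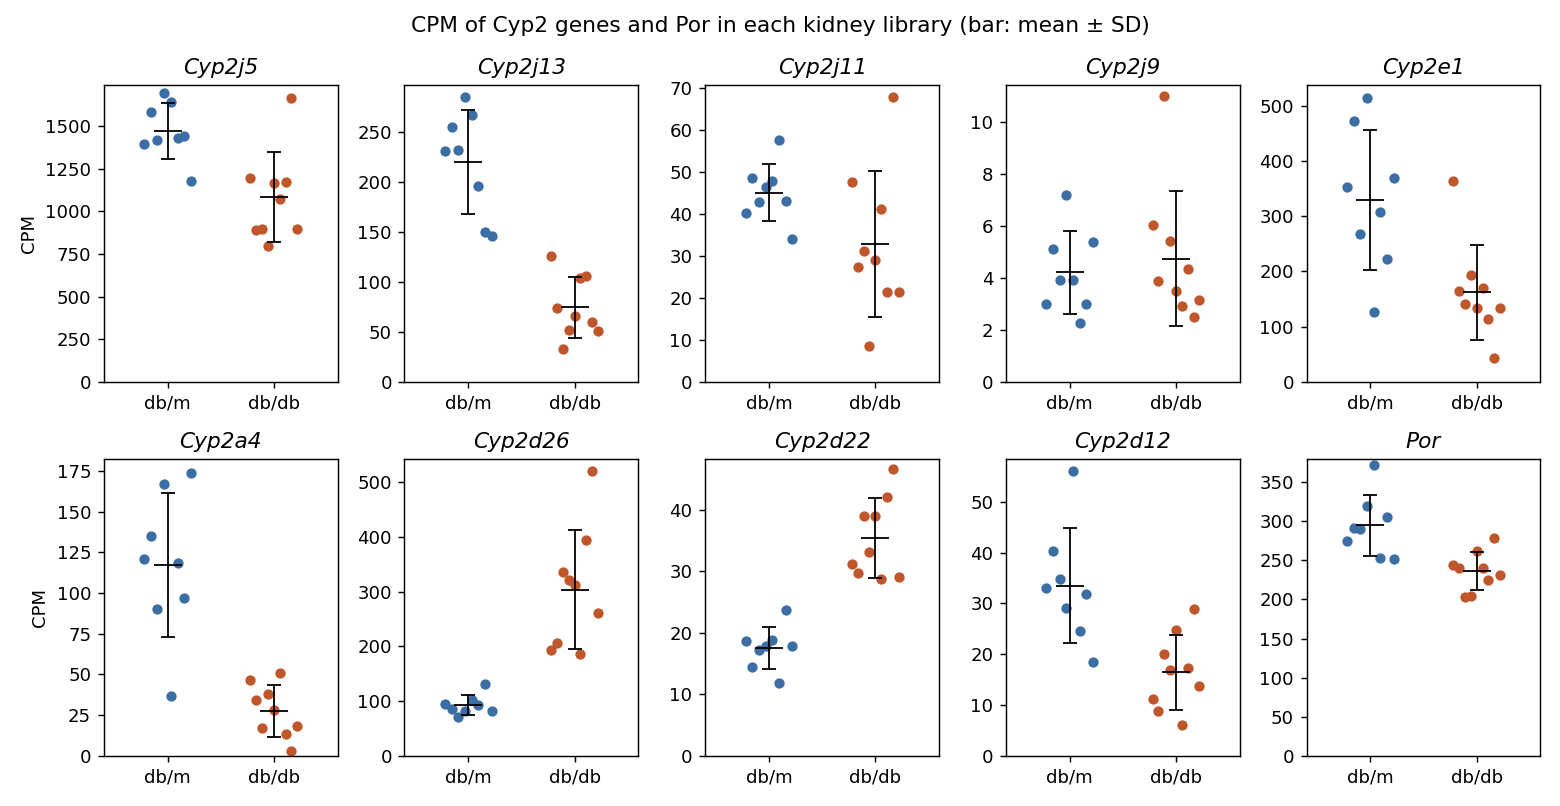
CPM (vertical axis, from 0) of each of the 10 genes in every kidney library, with db/m (n = 8, blue) and db/db (n = 9, orange) side by side; points are libraries, and the black bars show the mean and SD of the group. Cyp2j13, Cyp2d26 and Cyp2d22 are the 3 genes whose groups do not overlap, and 2 db/db libraries, at 1193 and 1667 CPM of Cyp2j5, lie within its db/m range.

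The 2J genes lie side by side on chromosome 4. Cyp2j5, an epoxygenase and the most abundant transcript of the 10, ran from 1180 CPM at the lowest through a median of 1438 to 1696 at the highest in db/m, and from 795 through 1070 to 1667 in db/db. Of the 9 db/db libraries, 7 lay below the lowest db/m library, while db/db replicate 8 lay near the top of the db/m range. The log2 fold change (db/db minus db/m throughout) was -0.44 (SE 0.13), and -0.54 (SE 0.11) without db/db replicate 8. The call of Cyp2j5 held in 4 of the 17 fits that each left out 1 library.

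Cyp2j13, a close relative known for higher levels in kidneys of males than of females, was at 146.2, 231.6 and 284.9 CPM (lowest, median, highest) in db/m and at 33.1, 65.9 and 126.0 CPM in db/db. All 9 db/db libraries lay below all 8 db/m libraries. The log2 fold change was -1.56 (SE 0.22), or 2.95-fold lower in db/db, and it was called in 17 of 17 fits that left out 1 library. The ratio of Cyp2j5 to Cyp2j13, taken within each library, was 5.95 to 9.63 in db/m (median 6.17) and 9.47 to 27.6 in db/db (median 15.4). The groups met only at the edge, where db/m replicate 7 was above db/db replicate 1.

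Cyp2j11, another kidney member of the subfamily, was at 34.1, 44.7 and 57.5 CPM in db/m and at 8.45, 28.9 and 67.7 CPM in db/db. The db/db libraries spread more widely (coefficient of variation 53.0%, against 15.2% in db/m): 6 lay below the lowest db/m library and db/db replicate 8 above the highest. Its log2 fold change of -0.45 (SE 0.25) was not called. It was -0.66 (SE 0.22) without db/db replicate 8 and -0.33 (SE 0.20) without db/db replicate 4, which held the lowest value. With both replicates 8 left out it was -0.72 (SE 0.22) and was called.

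Cyp2j9, known mainly from brain, was the least abundant of the 10, with 11 to 52 counts per library. It stood at 2.25, 3.93 and 7.17 CPM in db/m, against 2.48, 3.86 and 10.98 CPM in db/db, and the groups overlapped throughout. Its log2 fold change was 0.18 (SE 0.30, 95% interval -0.44 to 0.79) and was not called. The highest library, db/db replicate 3, set the sign, since without it the value was -0.09 (SE 0.26).

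The neighbours of these genes were low or did not pass the test. Counting protein-coding genes along chromosome 4 from Cyp2j13 as place 1, Cyp2j11 is at place 4, Cyp2j6 at 6, Cyp2j9 at 7 and Cyp2j5 at 8 (GENCODE M21 gene order). Cyp2j6 was at 19.5 ± 3.13 CPM in db/m (SD, n = 8), against 22.2 ± 4.58 in db/db (SD, n = 9), a log2 fold change of 0.18 (SE 0.14; edgeR adjusted p = 0.506). Cyp2j7, Cyp2j8 and Cyp2j12 were too low to test, with 80, 7 and 2 counts over all db/m libraries and 48, 9 and 1 over all db/db libraries. Lepr follows at place 37. The groups differ by design in the alleles they carry there, so an effect of the linked stretch of chromosome 4 on the Cyp2j genes cannot be told apart from an effect of the leptin receptor state.

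Cyp2e1, which oxidises ethanol, acetone and other small molecules, was the second most abundant P450 gene of the 9 in db/m, at 127.1, 330.3 and 514.1 CPM, and stood at 43.7, 140.2 and 363.2 CPM in db/db. The groups overlapped, with 2 of 9 db/db libraries below the lowest db/m library and db/db replicate 1 above the db/m median. Its log2 fold change was -1.02 (SE 0.29), and -1.25 (SE 0.25) without db/db replicate 1. The call held in 6 of 17 fits that left out 1 library.

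Cyp2a4 encodes a steroid hydroxylase that acts on testosterone. It was at 36.4, 119.6 and 173.9 CPM in db/m and at 2.90, 27.9 and 50.6 CPM in db/db. A single db/m library, replicate 5, lay within the db/db range, and the next lowest db/m library was at 90.2 CPM. The log2 fold change was -2.10 (SE 0.36), or 4.28-fold lower in db/db, with 17 of 17 fits that left out 1 library calling it.

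Cyp2a5, a coumarin hydroxylase whose sequence is nearly the same as that of Cyp2a4, is counted beside it. Cyp2a5 was at 25.6 ± 13.2 CPM in db/m (SD, n = 8), against 45.0 ± 32.3 CPM in db/db (SD, n = 9), a log2 fold change of 0.81 (SE 0.44; edgeR adjusted p = 0.310). The sum of both was 143 ± 55.3 CPM in db/m, against 72.6 ± 43.3 CPM in db/db. The counting could have split or moved reads between these copies, so the level of each alone is uncertain. Over all genes, ambiguous reads made up 0.504% ± 0.0222 of the table's reads in db/m, against 0.567% ± 0.0308 in db/db (p = 0.000535 by exact permutation, adjusted 0.00350). This share is not specific to Cyp2a4 and Cyp2a5 and does not measure reads split or moved between them.

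The 3 genes of the 2D subfamily, which oxidises many drugs, lie on chromosome 15 and went both ways. Cyp2d26 was at 70.0, 89.4 and 132.0 CPM in db/m and at 185.2, 311.4 and 520.8 CPM in db/db. Every db/db library lay above every db/m library, and Cyp2d26 went from sixth to second in the order of levels among the 10 genes. Its log2 fold change was 1.71 (SE 0.19), a 3.27-fold higher level, and stayed within 1.58 to 1.80 whichever library was left out.

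Cyp2d22 was at 11.8, 17.8 and 23.7 CPM in db/m, against 28.7, 33.2 and 46.6 CPM in db/db, again without overlap. The log2 fold change was 1.02 (SE 0.14), with a range of 0.95 to 1.10 when 1 library was left out. In db/db its coefficient of variation was 18.3%, and among the 10 genes only that of Por was lower, at 10.3%.

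Cyp2d12 went the other way, at 18.4, 32.4 and 56.0 CPM in db/m, against 6.07, 16.9 and 29.0 CPM in db/db. Of the db/db libraries, 6 of 9 lay below the lowest db/m library. The log2 fold change was -1.02 (SE 0.25), and -0.85 (SE 0.25) without db/m replicate 5, the highest library. The ratio of Cyp2d26 to Cyp2d12, taken within each library, was 1.83 to 4.42 in db/m, against 12.6 to 30.5 in db/db.

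Between Cyp2d22 and Cyp2d26 in the gene order lie Cyp2d12 and Cyp2d9, a steroid hydroxylase that is known to be higher in males. Cyp2d9 was at 274 ± 63.6 CPM in db/m (SD, n = 8), against 210 ± 47.1 CPM in db/db (SD, n = 9), and did not pass the test (log2 fold change -0.39, SE 0.15; edgeR adjusted p = 0.131). Genes of this cluster are close copies, so reads could have been split among them.

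Por, the shared reductase, was at 251.9, 291.3 and 371.9 CPM in db/m, against 203.7, 240.0 and 278.3 CPM in db/db. Of 9 db/db libraries, 7 lay below the lowest db/m library and 0 above the highest. Its log2 fold change was -0.32 (SE 0.09), the smallest in size among the 8 called genes, and the call held in 3 of 17 fits that left out 1 library.

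Ordered by mean level, db/m kidneys had Cyp2j5, Cyp2e1, Por, Cyp2j13, Cyp2a4, Cyp2d26, Cyp2j11, Cyp2d12, Cyp2d22 and Cyp2j9. The steps from Cyp2j5 to Cyp2e1, from Cyp2d26 to Cyp2j11 and from Cyp2d22 to Cyp2j9 were free of overlap between libraries, whereas Cyp2e1 was above Por in only 5 of 8 libraries and Cyp2a4 above Cyp2d26 in 6 of 8. In db/db the order was Cyp2j5, Cyp2d26, Por, Cyp2e1, Cyp2j13, Cyp2d22, Cyp2j11, Cyp2a4, Cyp2d12 and Cyp2j9. There the step from Cyp2j5 to Cyp2d26 was the 1 step without overlap, and Cyp2d26 was above Por in 6 of 9 libraries. As 3′ tags of different genes can be captured unequally, these orders compare counts in CPM.

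**Figure D2:**
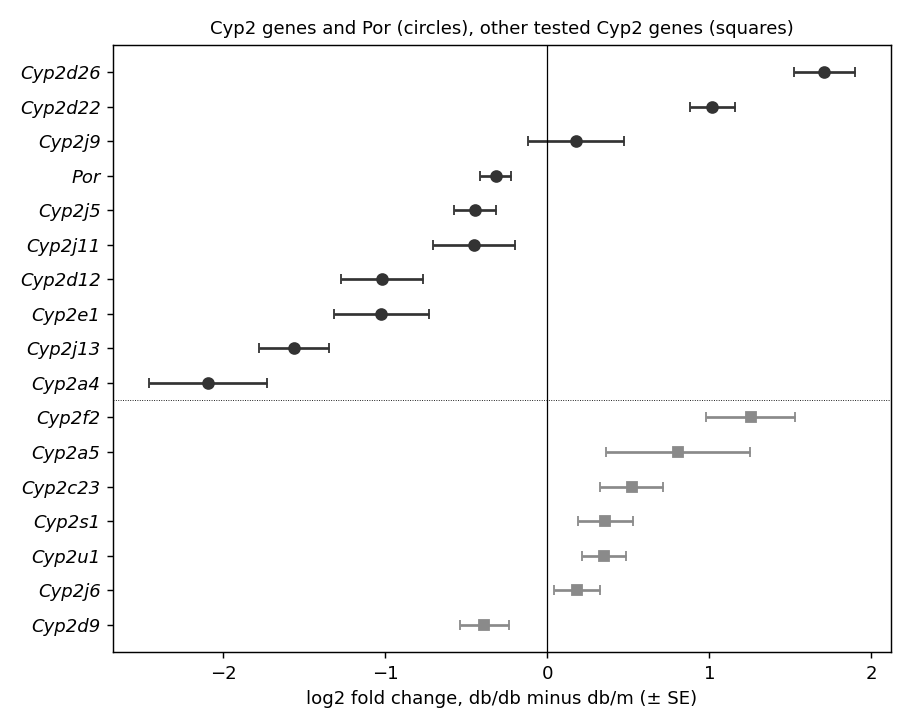
Log2 fold change (horizontal axis, db/db minus db/m, with SE) of the 10 genes (circles, above the dotted line) and of the 7 other tested Cyp2 genes (squares); n = 8 db/m and 9 db/db libraries. The 10 genes span from -2.10 for Cyp2a4 to 1.71 for Cyp2d26, and the other 7 from -0.39 for Cyp2d9 to 1.26 for Cyp2f2.

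The rest of the Cyp2 family, taken by symbol, held 40 further genes, of which 15 had no count in any library and 7 could be tested. This list and those below were chosen with earlier results of these data known, so their edgeR adjusted p-values are a description. Of these 7, 1 rose in db/db, 0 fell, and the median log2 fold change was 0.36, against 0.00 over all genes. Over all genes 3.91% rose and 3.49% fell, shares that also stand beside the lists below. At an unadjusted p under 0.05 by edgeR, 4 were higher and 1 was lower, and DESeq2 called 1 higher and 0 lower. The share of all tested genes under that unadjusted threshold was not computed, so nothing is read from such counts here or below. Over all genes DESeq2 called 637 higher and 608 lower, of 16903. The gene that rose was Cyp2f2, known from lung airway cells, at 1.53 ± 0.654 CPM in db/m (SD, n = 8), against 3.67 ± 1.22 CPM in db/db (SD, n = 9; log2 fold change 1.26, SE 0.28; edgeR adjusted p = 0.00598). Its groups did not overlap but nearly touched, with the highest db/m library at 2.6778 CPM and the lowest db/db library at 2.6805 CPM. It rests on 58 and 152 counts in all. Cyp2c23, a kidney epoxygenase of arachidonic acid, was at 35.4 ± 12.4 and 50.9 ± 13.7 CPM (0.52, SE 0.19; edgeR adjusted p = 0.114), and of the 17 fits that left out 1 library it passed in 1, without db/m replicate 8 (0.64, SE 0.19; edgeR adjusted p = 0.0449). Cyp2u1, a fatty acid hydroxylase, was at 14.8 ± 2.57 and 18.9 ± 3.15 CPM (0.35, SE 0.14; edgeR adjusted p = 0.130).

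Of 23 genes for electron transfer to P450 enzymes and for heme synthesis and breakdown, 22 were tested, 0 rose and 1 fell, with a median of 0.01. At an unadjusted p under 0.05 by edgeR, 1 was higher and 1 lower, and DESeq2 called 0 higher and 1 lower. The gene that fell was Cyb5a, which encodes cytochrome b5, a second electron donor to P450 enzymes. It ranged from 436.5 to 779.2 CPM in db/m (583 ± 109, SD, n = 8) and from 182.2 to 452.3 CPM in db/db (362 ± 81.8, SD, n = 9), with overlap of the groups at the edge and a log2 fold change of -0.69 (SE 0.15; edgeR adjusted p = 0.00541). The call held in 17 of 17 fits that left out 1 library. The biliverdin reductase Blvra (0.28, SE 0.12; edgeR adjusted p = 0.159) and the heme-binding P450 partner Pgrmc1 (0.33, SE 0.16; edgeR adjusted p = 0.248) did not pass the test.

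Of 4 epoxide hydrolases 2 could be tested. Ephx2, the soluble enzyme that turns arachidonic acid epoxides into diols, fell from 360 ± 55.6 CPM in db/m (SD, n = 8) to 254 ± 48.4 CPM in db/db (SD, n = 9). Its log2 fold change was -0.50 (SE 0.13; edgeR adjusted p = 0.0154). The microsomal enzyme Ephx1 was at 30.7 ± 15.9 and 47.98 ± 8.87 CPM (0.64, SE 0.24; edgeR adjusted p = 0.109). Without db/m replicate 8 it was 0.89 (SE 0.20; edgeR adjusted p = 0.00848). At an unadjusted p under 0.05 by edgeR, 1 of the pair was higher and 1 lower, and DESeq2 called 0 higher and 1 lower.

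Of 23 nuclear receptors, hormone receptors and other factors known to act on P450 genes, 22 were tested, 2 rose and 2 fell, with a median of -0.08. Over all genes 3.91% rose and 3.49% fell, and nothing is read from the comparison. Without adjustment, 3 of the list were higher and 3 lower at p under 0.05 by edgeR, and DESeq2 called 2 higher and 2 lower. The prolactin receptor Prlr rose from 12.8 ± 5.57 CPM in db/m (SD, n = 8) to 94.4 ± 28.9 CPM in db/db (SD, n = 9), without overlap (log2 fold change 2.88, SE 0.25; edgeR adjusted p = 1.24e-07). The growth hormone receptor Ghr fell from 290 ± 51.6 CPM (SD, n = 8) to 171 ± 36.0 CPM (SD, n = 9; -0.76, SE 0.13; edgeR adjusted p = 0.000561), and the estrogen receptor Esr1 from 9.38 ± 2.72 to 4.29 ± 1.58 CPM (-1.14, SE 0.24; edgeR adjusted p = 0.00411). The fourth called gene, Nr1i2, which encodes the xenobiotic receptor PXR and was named after its value was seen, rose from 3.30 ± 1.75 to 8.85 ± 4.40 CPM (1.41, SE 0.34; edgeR adjusted p = 0.0111). Hnf4a, a regulator of proximal tubule genes that was also named after its value was seen, was at 311 and 275 CPM (-0.18, SE 0.18; edgeR adjusted p = 0.620).

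How the genes varied among animals of 1 group was not used in choosing them. Each P450 gene was correlated with Por, and each of the 10 genes with Kap, an abundant kidney transcript, in log2 CPM within each group. Kap itself fell from 24313 ± 4207 CPM in db/m (SD, n = 8) to 4071 ± 1244 CPM in db/db (SD, n = 9; log2 fold change -2.58, SE 0.19; edgeR adjusted p = 1.79e-08). Of the 38 relations, 0 passed Benjamini-Hochberg adjustment and 8 had an exact permutation p under 0.05 before it. Cyp2j5 and Por gave r = 0.766 in db/m (p = 0.0270 by exact permutation, adjusted 0.184; rho = 0.881, p = 0.00724, n = 8) and r = 0.810 in db/db (p = 0.00738 by exact permutation, adjusted 0.140; rho = 0.700, p = 0.0433, n = 9). In db/m the smallest p of the Por and Kap relations was that of Cyp2d12 with Por, r = 0.826 (p = 0.0150 by exact permutation, adjusted 0.184; rho = 0.619, p = 0.115, n = 8), and 0.380 (p = 0.449 by exact permutation) without 2 libraries. Of the 8, 1 was negative, Cyp2j9 with Por in db/db, r = -0.732 (p = 0.0239 by exact permutation, adjusted 0.184; rho = -0.633, p = 0.0760, n = 9), and -0.442 (p = 0.321 by exact permutation) without 2 libraries. For Cyp2j5, without the 2 libraries farthest from the median of Por, r was 0.638 (p = 0.200 by exact permutation) and 0.723 (p = 0.0635 by exact permutation). Cyp2j13 and Kap gave r = 0.828 in db/db (p = 0.00458 by exact permutation, adjusted 0.140; rho = 0.717, p = 0.0369, n = 9), and 0.622 (p = 0.146 by exact permutation) without 2 libraries. In db/m the same pair gave r = 0.736 (p = 0.0408 by exact permutation, adjusted 0.198; rho = 0.381, p = 0.360, n = 8), a relation that rests on 2 libraries, those most distant from the median of Kap, as r was -0.491 (p = 0.321 by exact permutation) without them. The other 2 of the 8 were Cyp2j11 with Por in db/db (r = 0.718, p = 0.0291 by exact permutation, adjusted 0.184; rho = 0.650, p = 0.0666, n = 9; r = 0.751 without 2 libraries) and with Kap in db/m (r = 0.720, p = 0.0416 by exact permutation, adjusted 0.198; rho = 0.524, p = 0.197, n = 8; r = 0.393 without 2 libraries).

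Cyp2e1 and Cyp2a4, which lie far apart on chromosome 7, varied together from animal to animal. In db/m r was 0.930 (p = 0.00154 by exact permutation, adjusted 0.0321 over 90 relations; rho = 0.905, p = 0.00456, n = 8), and 0.738 (p = 0.0833 by exact permutation) without the 2 libraries most distant from the median of Cyp2e1. In db/db r was 0.911 (p = 0.000546 by exact permutation, adjusted 0.0321; rho = 0.900, p = 0.00203, n = 9), and 0.861 (p = 0.0169 by exact permutation) without 2 libraries. All 45 pairs were tested in both groups, which was decided after the data were seen. Of the pairs, 5 passed adjustment in db/db and 1 in db/m, and for rho 0 of the 90 relations passed. How many pairs of other tested genes would pass the same test was not computed, so these counts do not set the genes apart.

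The 2D genes varied together in db/db, although their group differences go in opposite directions. Cyp2d26 and Cyp2d22 gave r = 0.910 (p = 0.000736 by exact permutation, adjusted 0.0321; rho = 0.917, p = 0.00131, n = 9), and 0.819 (p = 0.0325 by exact permutation) without 2 libraries. Cyp2d26 and Cyp2d12 gave r = 0.890 (p = 0.00154 by exact permutation, adjusted 0.0321; rho = 0.867, p = 0.00451, n = 9), and 0.805 (p = 0.0321 by exact permutation) without 2 libraries. Cyp2d22 and Cyp2d12 gave r = 0.854 (p = 0.00329 by exact permutation, adjusted 0.0494; rho = 0.883, p = 0.00308, n = 9), and 0.857 (p = 0.0145 by exact permutation) without 2 libraries. In db/m the values for Cyp2d26 with Cyp2d22 and with Cyp2d12 were 0.474 (p = 0.224 by exact permutation; rho = 0.595, n = 8) and 0.225 (p = 0.592 by exact permutation; rho = 0.262, n = 8), and whether the groups differ in this was not tested. Cyp2a4 ran against Cyp2d26 in db/db, with r = -0.861 (p = 0.00179 by exact permutation, adjusted 0.0321; rho = -0.883, p = 0.00308, n = 9), and -0.664 (p = 0.119 by exact permutation) without 2 libraries.

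**Figure D3:**
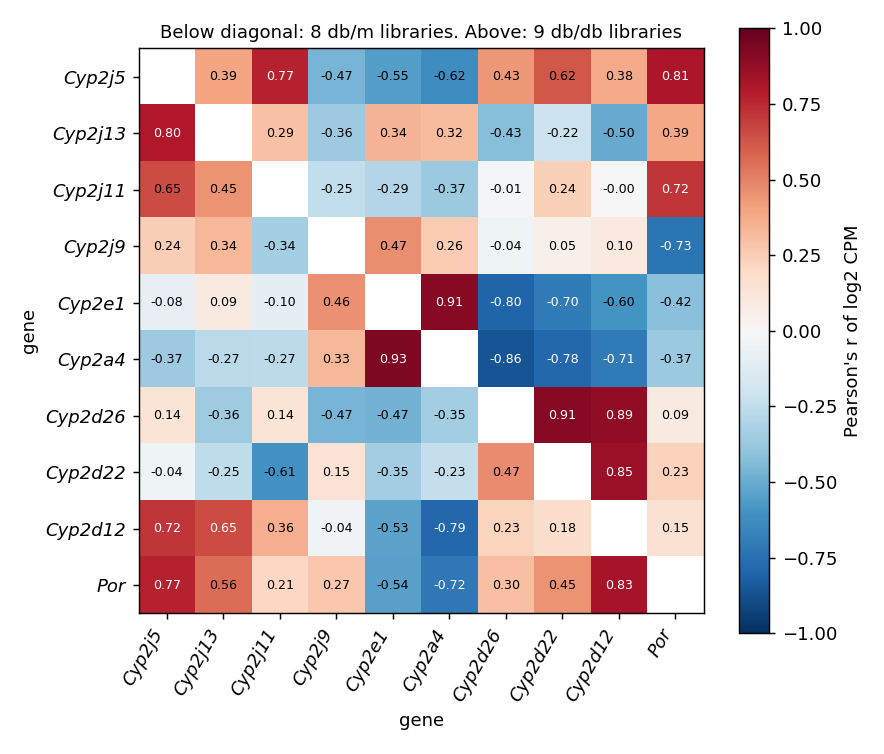
Pearson's r of log2 CPM (color scale) for each pair of the 10 genes (both axes list the genes), from the 8 db/m libraries below the diagonal and the 9 db/db libraries above it; red is positive and blue negative. Cyp2e1 with Cyp2a4 is at 0.93 and 0.91, and in db/db the 2D genes form a positive block that runs negative against Cyp2e1 and Cyp2a4. Among these negative values, only that of Cyp2a4 with Cyp2d26 passed adjustment.

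Some of these genes followed the main axis along which the libraries differ, with 6 of 20 relations past adjustment. The share of all tested genes that would pass the same test was not computed, so the count does not set these genes apart. The first principal component was computed from all 12131 tested genes, these 10 among them, and each gene was correlated with it within each group (20 relations, added after the data were seen). Cyp2e1 gave r = -0.881 in db/m (p = 0.00203 by exact permutation, adjusted 0.00814; rho = -0.857, p = 0.0107, n = 8) and -0.965 in db/db (p = 0.000102 by exact permutation, adjusted 0.00135; rho = -0.950, p = 0.000353, n = 9). Without the 2 libraries with the most distant scores r was -0.916 (p = 0.0181 by exact permutation) and -0.841 (p = 0.0157 by exact permutation). For Cyp2a4 r was -0.835 in db/m (p = 0.00139 by exact permutation, adjusted 0.00694; rho = -0.857, p = 0.0107, n = 8) and -0.932 in db/db (p = 0.000135 by exact permutation, adjusted 0.00135; rho = -0.917, p = 0.00131, n = 9), and without 2 libraries -0.744 (p = 0.0931 by exact permutation) and -0.880 (p = 0.00496 by exact permutation). Cyp2d26 in db/db gave 0.900 (p = 0.000322 by exact permutation, adjusted 0.00215; rho = 0.833, p = 0.00827, n = 9), and 0.815 (p = 0.0179 by exact permutation) without 2 libraries. Cyp2d22 in db/db gave 0.786 (p = 0.00645 by exact permutation, adjusted 0.0215; rho = 0.667, p = 0.0589, n = 9), and 0.734 (p = 0.0369 by exact permutation) without 2 libraries. Neither passed in db/m (n = 8), where Cyp2d26 gave r = 0.646 (p = 0.0753 by exact permutation, adjusted 0.167, rho = 0.810). There Cyp2d22 gave r = 0.255 (p = 0.547 by exact permutation, adjusted 0.644, rho = 0.405). By contrast Cyp2j13 gave -0.0471 in db/m (p = 0.904 by exact permutation; rho = 0.0238, n = 8) and -0.306 in db/db (p = 0.430 by exact permutation; rho = -0.383, n = 9).

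The same genes went with other measures of the libraries, given here as r (marker sums on the log2 scale) over 17 libraries after subtracting the group means, with no test. Cyp2e1 had r = 0.61 with the percentage of mitochondrially encoded counts, -0.65 with the summed hepatocyte markers and -0.68 with the summed leukocyte markers. For Cyp2a4 these values were 0.58, -0.64 and -0.66, and for Cyp2d26 -0.51, 0.39 and 0.65. Mitochondrially encoded counts made up 27.4% to 30.6% in db/m libraries and 22.02% to 30.3% in db/db libraries. The part of these measures in the covariation of the genes was not tested.

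**Figure D4:**
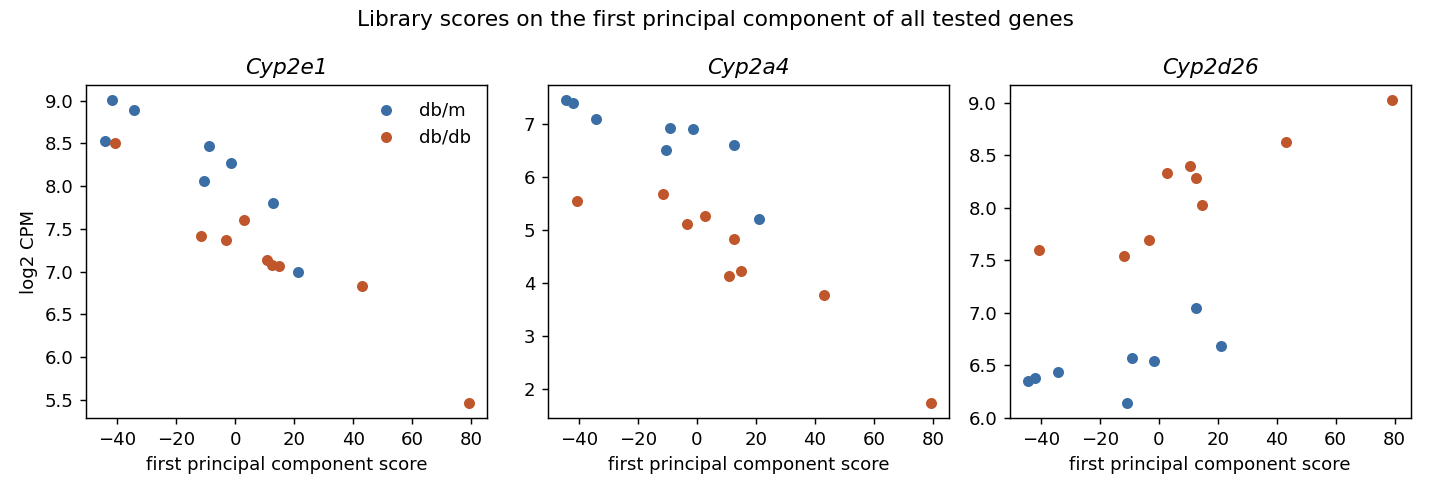
Log2 CPM of Cyp2e1, Cyp2a4 and Cyp2d26 (vertical axes) against the score of each library on the first principal component of all tested genes (horizontal axis), for 8 db/m (blue) and 9 db/db (orange) libraries. Cyp2e1 and Cyp2a4 go down along the axis in both groups. Cyp2d26 goes up, a relation that passed adjustment in db/db and not in db/m. The library db/db replicate 8, with a score of 79.2, is at the far end in every panel.

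For each of the 10 genes, the gene with the most similar pattern was found among 10278 named genes whose average log2 CPM was 2 or more, by Pearson's r of log2 CPM over 17 libraries after subtracting the group means; this is a ranking and carries no p-value. Tpp1, a lysosomal peptidase, was nearest to Cyp2e1 (r = 0.972), Bcar1 to Cyp2a4 (0.964) and Tmco4 to Cyp2d26 (0.931). Ddah1, which breaks down methylated arginine, was nearest to Cyp2j5 (0.938), the carboxylesterase Ces1f to Cyp2j13 (0.853) and the sulfate transporter Slc26a1 to Cyp2d12 (0.904). Cyp2j11 was nearest to a gene with only a clone name (0.947), Cyp2j9 to the peroxisomal import receptor Pex7 (0.820), Cyp2d22 to Imp3 (0.813) and Por to the cation transporter Slc22a4 (0.822).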

How the data were processed

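Polyadenylated RNA of 17 kidneys was made into 3′ tag libraries, per the labels' protocols, whose text speaks of cells in plates while the tissue field says kidney. The authors deposited whole-number read counts per gene, which the submitters' processing notes credit to the aligner STAR (2.7.3a) and the counter HTSeq (2.16.2), per the labels; the build listed in them is human although the gene identifiers are mouse, so no coordinates of the files are given. Symbols, chromosomes and gene order came from GENCODE M21 (55141 of 55487 identifiers matched), and promoters from RefSeq. Reads outside genes (19.3% of the table) and ambiguous reads (0.533%) were left out. Libraries held 3256427 to 7627747 counts, and 3 counts correspond to 0.380 to 0.929 CPM.

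Groups were compared with edgeR 4.0.16 in R 4.3.3 (quasi-likelihood test, TMM factors, filterByExpr with a minimum count of 10, db/db against db/m, Benjamini-Hochberg adjustment over 12131 genes, threshold 0.05). Log2 CPM for correlations used a prior count of 2. Single values were compared by two-sided exact permutation tests. The 17 libraries come from 17 animals, and the closest pair within a group differed by more than counting noise (chi-square per degree of freedom 3.78 for db/m, 4.04 for db/db). The genes and lists were chosen with earlier results of these data known, so the edgeR adjusted p-values printed for single genes are a description. Genes named from a list were up to 3 with the smallest p, as a rule; Cyp2j6, Cyp2d9 and Cyp2a5 were named as neighbours or close copies, and Nr1i2 and Hnf4a from their list, all after their values were seen. The script was tested on simulated data. Alternatives were RLE factors, library totals, no filter, edgeR's robust option, no mitochondrially encoded genes, a replicate block, DESeq2 1.42.0 and leaving out libraries. Some items, among them a part of the strain's genotype and a promoter pattern, are not reported here.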

Additional observations from a re-analysis of the deposited data

Results flagged for a closer look

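Of 20 sets of values (10 genes in 2 groups) examined for a library far from the rest of its group on the log2 CPM scale, 2 held one, and chance gives about 1 in 20. Both concern Cyp2a4. In db/m, replicate 5 was the lowest at 36.4 CPM, with the next library at 90.2 CPM. In db/db, replicate 8 was the lowest at 2.90 CPM, with the next library at 13.3 CPM. With both libraries left out, an alternative chosen after seeing the data, 6 of the 10 genes were still called lower and 2 higher.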

How the results depend on the processing

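Of the 10 genes, 2 (Cyp2d26 and Cyp2d22) were called higher in db/db under every alternative run, and Cyp2j13, Cyp2a4 and Cyp2d12 were called lower under every one. The number called lower was 6 and ranged from 3 to 6 when 1 library was left out. It was 3 with a replicate block, 4 with RLE factors or with no filter, 5 with the robust option or without mitochondrially encoded genes, 6 with library totals or DESeq2, and 7 without both replicates 8. Cyp2j5, Cyp2e1 and Por lost their calls under 16, 13 and 18 of 26 alternatives, keeping their direction. Cyp2j9, never called, ranged from -0.09 to 0.34 when 1 library was left out and was below 0, at -0.0932, only without db/db replicate 3. Over all genes, 474 were called higher and 423 lower; leaving out 1 library gave 319 to 666 higher and 318 to 571 lower, DESeq2 637 and 608, and the replicate block 194 and 231. Under the block Cyp2f2 (edgeR adjusted p = 0.0792) and Ephx2 (0.0913) lost their calls. The replicate numbers share no stated origin, and deviations of same-numbered libraries correlated at -0.45 to 0.21, so the numbers were not taken to pair animals, and db/db replicate 9 was dropped from that fit. With no filter, 1 further Cyp2 gene was called lower, Cyp2b10, which had 24 counts over the db/m libraries, against 2 over db/db. With a prior count of 0.5, 0 of 38 relations with Por or Kap passed adjustment, as before. Depth limits Cyp2j9 most, with 155 counts over all db/m and 189 over all db/db libraries.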
